A study of Mus musculus with 14 samples.

Results

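Immune checkpoint genes encode the ligands and receptors through which tumour cells and antigen-presenting cells restrain T cells, NK cells and macrophages. The 8 genes described here are Tigit and 7 checkpoint ligands, Pvr, Cd274, Pdcd1lg2, Cd80, Cd276, Cd47 and Lgals9, of 24411 gene symbols in the deposited tables, and all 8 were matched by symbol. Tigit was chosen by its measured level, which was higher in MC-38 cells given NET chromatin, and that difference is given as a description with no test. NET chromatin is the DNA and histone web that neutrophils release as neutrophil extracellular traps, and MC-38 is a mouse colon cancer line. The expression of each gene was measured by RNA sequencing of total RNA in 14 libraries. In culture, 3 libraries of MC-38 cells given NET chromatin were set against 3 libraries of untreated MC-38 cells. The other 8 libraries were of MC-38 cells expressing GFP that were sorted from lung tumours on day 30. Of these, 2 came from PAD4 knockout (KO) hosts with laparotomy, 2 from PAD4 KO hosts without surgery, 2 from wild-type (WT) hosts with laparotomy and 2 from WT hosts without surgery. Laparotomy, the surgical opening of the abdomen, was done on days 0 and 10. PAD4, encoded by Padi4, citrullinates histones when neutrophils release NETs. The labels place the knockout in the mice and give the genotype WT for every sample, which was read as that of the tumour cells. Nothing in the labels tells whether replicate libraries stem from different cultures or different animals. The p-values therefore speak for the spread among these libraries alone, and that spread may be technical.

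TIGIT is an inhibitory receptor known from T cells and NK cells. It binds PVR (CD155) on tumour and antigen-presenting cells and competes there with the activating receptor CD226. PD-L1 (Cd274) and PD-L2 (Pdcd1lg2) bind the inhibitory receptor PD-1, and Cd274 is a known target of interferon signalling through IRF1. CD80 binds CD28, which activates T cells, and CTLA-4, which restrains them. CD47 signals to SIRPα on macrophages against phagocytosis, galectin-9 (Lgals9) binds TIM-3 (Havcr2), and B7-H3 (Cd276) is a B7 family protein whose receptor is not settled.

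Gene counts summed to 6.39 to 20.6 M per culture library and to 10.8 to 31.3 M per tumour library. Levels are CPM, reads of a gene relative to all gene reads of its library, scaled with TMM factors within the culture or within the tumour libraries. Markers of epithelial and colon cells were near absent in culture, where 10 markers summed to 1.10 to 1.85 CPM in NET libraries and to 0.990 to 1.93 CPM in control libraries. In the sorted tumour cells, 6 fibroblast markers summed to 3667 to 12050 CPM, against 141 to 171 CPM in culture. WT control replicate 2 stood apart, with 845 CPM summed over 10 pan-leukocyte markers against 76.7 to 173 CPM in the other 7 tumour libraries. Padi4 lay at 64.4 to 66.1 CPM in NET and 64.5 to 72.1 CPM in control cultures, on a separate scaling. In tumour libraries Padi4 lay at 2.83 to 3.97 CPM in KO hosts with laparotomy, 2.07 to 5.47 CPM in KO control hosts, 30.3 to 30.7 CPM in WT hosts with laparotomy and 3.20 to 7.49 CPM in WT control hosts. If the sorted cells are WT for Padi4, as the labels were read, this level does not check the host knockout. In bulk RNA, fewer cells of a type and less RNA per cell cannot be told apart.

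Promoter windows are shown for Tigit, chosen for its rise, and for Cd274 and Cd276, the ligands with the largest fold differences in culture. With NET chromatin, Tigit and Cd274 were higher and Cd276 was lower. The window of Lgals9 is shown because it was the member with the highest level per kb in all 6 groups. Each runs from 250 bases before to 50 bases after the RefSeq start site on the gene's strand, in GRCm38.p6. Capitals mark matches on either strand to the hypoxia element (ACGTG or GCGTG) or to the core of the interferon-stimulated response element (ISRE).
Tigit, chr16:43664135-43664434, minus strand: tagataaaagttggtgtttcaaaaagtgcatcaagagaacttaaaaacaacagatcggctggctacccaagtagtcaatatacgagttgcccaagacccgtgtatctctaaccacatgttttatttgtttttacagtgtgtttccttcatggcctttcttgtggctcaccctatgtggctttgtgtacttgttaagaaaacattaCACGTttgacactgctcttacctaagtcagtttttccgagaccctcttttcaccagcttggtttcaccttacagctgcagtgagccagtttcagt
Cd274, chr19:29367188-29367487, plus strand: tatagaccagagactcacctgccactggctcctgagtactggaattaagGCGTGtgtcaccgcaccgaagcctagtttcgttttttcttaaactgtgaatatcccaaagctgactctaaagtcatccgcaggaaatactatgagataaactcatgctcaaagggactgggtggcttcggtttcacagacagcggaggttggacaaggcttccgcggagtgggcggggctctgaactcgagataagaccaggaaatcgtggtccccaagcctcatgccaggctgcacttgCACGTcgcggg
Cd276, chr9:58554984-58555283, minus strand: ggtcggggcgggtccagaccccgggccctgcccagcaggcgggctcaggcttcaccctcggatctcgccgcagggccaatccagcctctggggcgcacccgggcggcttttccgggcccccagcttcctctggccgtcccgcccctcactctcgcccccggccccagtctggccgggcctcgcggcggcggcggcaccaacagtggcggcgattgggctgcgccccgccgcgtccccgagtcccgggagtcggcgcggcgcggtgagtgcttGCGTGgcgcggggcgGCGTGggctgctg
Lgals9, chr11:78984875-78985174, minus strand: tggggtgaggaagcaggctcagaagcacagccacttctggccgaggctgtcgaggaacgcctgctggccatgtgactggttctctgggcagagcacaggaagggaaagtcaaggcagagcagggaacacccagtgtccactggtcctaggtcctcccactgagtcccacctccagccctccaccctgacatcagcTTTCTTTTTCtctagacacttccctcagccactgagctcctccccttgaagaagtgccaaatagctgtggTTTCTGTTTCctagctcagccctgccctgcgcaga

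These windows differed in base composition. The Tigit window was 41.3% GC with 5 CpG dinucleotides, the Cd274 window 52.7% GC with 15, the Cd276 window 78.3% GC with 39 and the Lgals9 window 58.0% GC with 4, where the medians over 32851 windows were 52.7% GC and 7 CpG. The ISRE core, a site bound by interferon-activated factors, was matched at 2 places in the Lgals9 window and is present in 3.44% of all windows. The hypoxia element is short and is present in 43.8% of all windows; it was matched once in the Tigit window and at 2 places each in the Cd274 and Cd276 windows. The other motifs searched were GAS (TTCNNNGAA, in 8.30% of windows), AP-1 (TGANTCA, 7.81%), the TATA box (TATAAA, 13.6%) and kappaB by its consensus (8.46%). None of these had a match in the windows printed. Outside them, Pdcd1lg2 had a kappaB match and Cd80 an AP-1 and a TATA match, Cd47 had hypoxia element matches only, and Pvr was not among the tabulated promoters.

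Between NET and control cultures, 6 members had enough reads to be fitted. Tigit was chosen for its rise, so its place as the largest fold change among these is no result. Of the ligands fitted, Cd274 had the largest increase. Cd274 (PD-L1) was 1.86-fold higher with NET chromatin, Pvr 1.23-fold higher and Cd47 1.22-fold higher, while Cd276 (B7-H3) fell to 0.439 of the control level. Lgals9 did not pass the test. Of the 5 members tested besides Tigit, 3 were higher and 1 was lower in edgeR's quasi-likelihood test at an adjusted p of 0.05, where 26.3% of the 11753 genes tested were called higher and 27.8% lower. With so large a share of all genes called, these counts are no result about the members as a group.

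**Figure D1:**
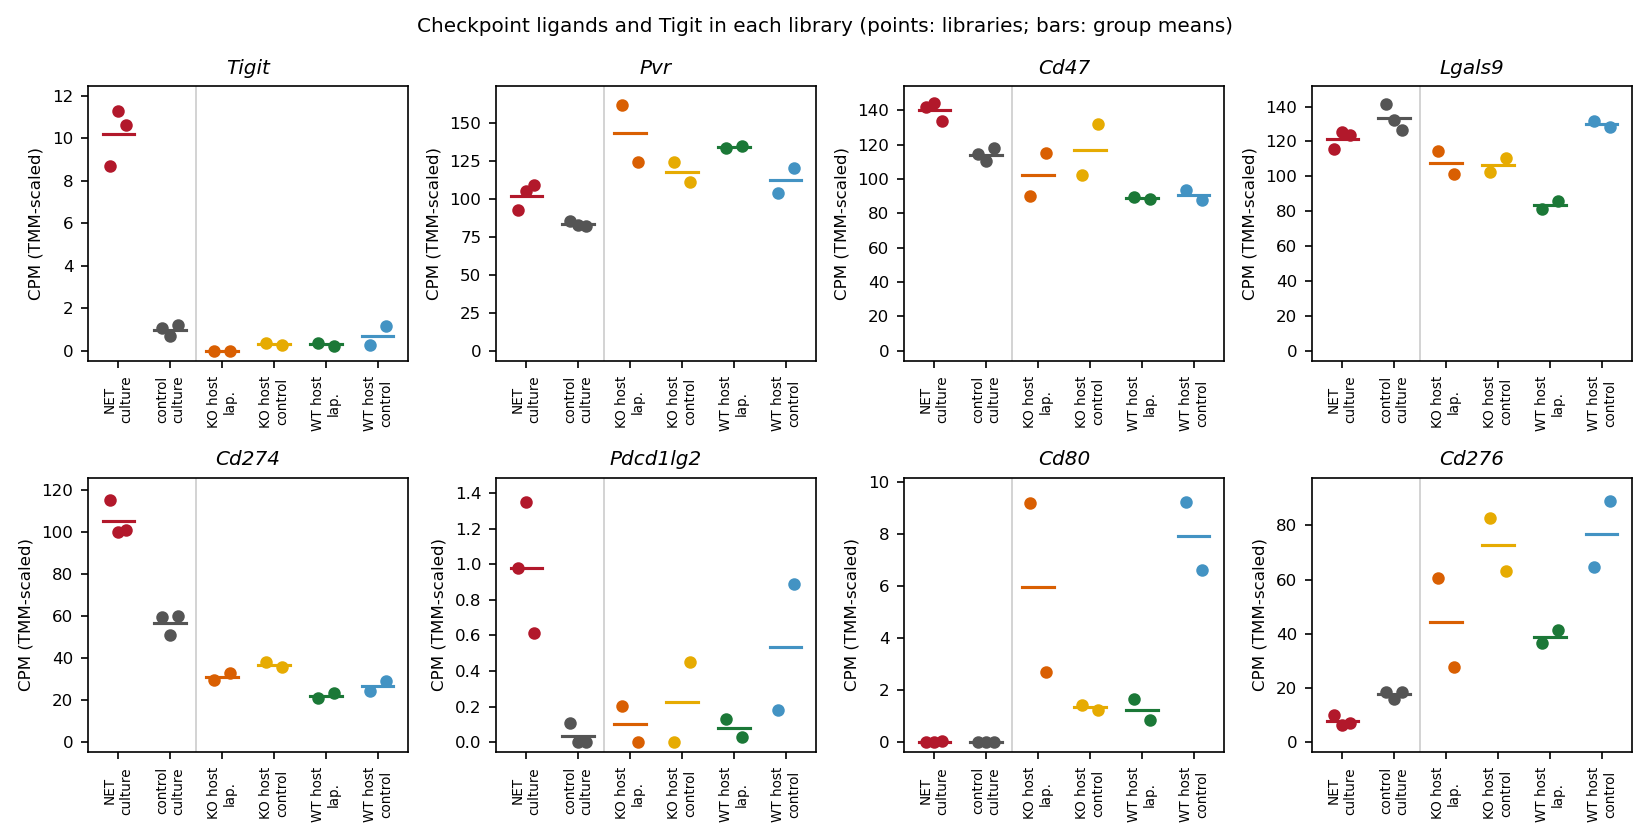
Level of each of the 8 genes in every library, in CPM with TMM scaling within culture or tumour libraries (vertical axes start near 0 and differ between panels); points are libraries, bars are group means, and the grey line parts culture from tumour groups. Tigit and Cd274 are highest and Cd276 is lowest in the 3 NET cultures, and Cd80 was counted almost only in tumour libraries.

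Tigit lies on chromosome 16 (43648867 to 43664146, minus strand, GRCm38). It had 8.69, 11.3 and 10.6 CPM in NET cultures, from 71, 67 and 208 reads, against 1.07, 0.707 and 1.22 CPM in control cultures, from 10, 9 and 16 reads. Every NET library lay far above every control library, and the control level rested on few reads. The fitted difference was 3.35 on the log2 scale, a 10.2-fold higher level. Of the Tigit reads, 336 of 346 in NET libraries and 30 of 35 in control libraries stood in the larger strand-specific count column. The neighbouring gene Zbtb20, a transcription factor gene on the opposite strand whose RefSeq extent overlaps that of Tigit, averaged 17.2 ± 1.92 CPM in NET and 21.1 ± 0.214 CPM in control cultures (SD over 3 libraries each). Its log2 fold change was -0.28 ± 0.11 (SE, edgeR adjusted p = 0.0328).

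Tigit is known as a lymphocyte gene, so markers of other cells were read beside it. The 19 T and NK cell markers summed to 2.45 to 3.03 CPM in NET libraries and to 1.61 to 3.20 CPM in control libraries, less than Tigit alone in every NET library. In NET libraries, 12 of the 19 had a read, and Cd3e, Ncr1, Klrb1c, Klrk1, Gzma, Gzmb and Prf1 were at 0. In control libraries 10 of the 19 had a read. Markers of myeloid cells did move with the treatment. The 10 pan-leukocyte markers summed to 15.2 to 17.0 CPM in NET and 5.25 to 5.41 CPM in control libraries. Neutrophil markers (9 of 11 with a read in NET, 6 of 11 in control; Ngp and Retnlg at 0 in both) summed to 8.57 to 11.3 CPM in NET and 0.381 to 1.02 CPM in control libraries. Monocyte and macrophage markers (8 of 10 with a read in NET, 5 of 10 in control) summed to 154 to 177 CPM in NET and 89.2 to 108 CPM in control libraries. Single genes carried these sums: Cd68 held 4553 of the 5445 macrophage marker reads in NET and 3112 of 3478 in control libraries, and Mmp8 held 209 of the 328 neutrophil marker reads in NET and 1 of 22 in control libraries. Cd14 had 302 reads in NET and 287 in control libraries. Ptprc, the leukocyte marker CD45, had 45 reads in NET against 1 in control libraries, Adgre1 had 55 against 0 and Csf1r 28 against 0, while C1qa and C1qc were at 0 in both. Dendritic cell markers (4 of 7 with a read in each group) summed to 34.4 to 42.4 CPM in NET and 32.9 to 36.1 CPM in control libraries, and the 5 B cell markers to 1.22 to 1.52 CPM in NET and 0.322 to 0.761 CPM in control libraries. The part of the myeloid reads in the checkpoint values was not tested.

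**Figure D2:**
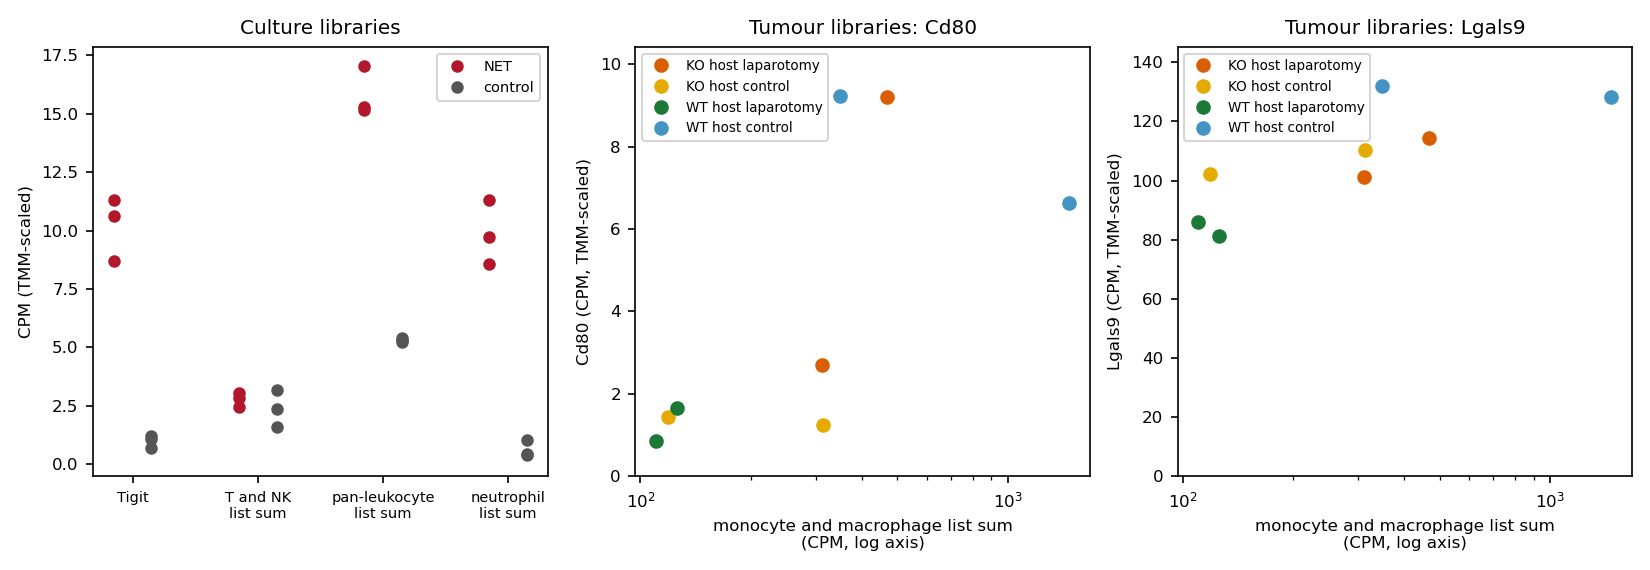
Left, Tigit and the summed levels of 3 marker lists in each culture library (CPM); middle and right, Cd80 and Lgals9 (CPM) against the summed monocyte and macrophage markers (CPM, log axis) in each tumour library, with points coloured by group. Tigit stood above the T and NK cell sum in the 3 NET cultures, and the 2 WT laparotomy tumour libraries, at 110 to 126 CPM of macrophage markers, had the lowest Lgals9 levels, while KO control replicate 1, at 119 CPM of markers, had 102 CPM of Lgals9.

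Of the TIGIT ligands, Pvr (chromosome 7, 19903578 to 19921160, minus strand) is the one with the highest affinity. It had 92.7, 105 and 109 CPM in NET cultures against 85.5, 83.1 and 82.3 CPM in control cultures. The groups did not overlap, and the difference was 0.30 ± 0.07 on the log2 scale (SE, n = 3 each, edgeR adjusted p = 0.00255). Of the nectins, cell adhesion proteins that also bind TIGIT, CD226 or CD96, none of those tested rose. Of the 7 listed partners of the TIGIT axis 6 were in the tables and 3 were tested in culture, of which 0 were higher and 2 lower, beside 26.3% and 27.8% of all genes (median log2 fold change -0.29, against 0.00 over all genes). Nectin1, listed as Pvrl1, averaged 4.77 ± 1.13 CPM in NET and 9.34 ± 0.756 CPM in control cultures (SD; log2 fold change -0.88 ± 0.17, edgeR adjusted p = 0.000275). Nectin2, listed as Pvrl2, averaged 22.5 ± 1.48 CPM in NET and 27.9 ± 1.03 CPM in control cultures (-0.29 ± 0.10, edgeR adjusted p = 0.0157), and Nectin3 (Pvrl3) had a log2 fold change of 0.06 (edgeR adjusted p = 0.541).

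Cd274 (chromosome 19, 29367455 to 29388095, plus strand) had 115, 100 and 101 CPM in NET cultures against 59.4, 50.9 and 59.9 CPM in control cultures. The lowest NET library lay above the highest control library by well over the spread within either group, and the log2 fold change was 0.89 ± 0.08 (SE, n = 3 each, edgeR adjusted p = 2.03e-07). Pdcd1lg2, the PD-L2 gene 22.8 kb from Cd274 on the same strand, was too low to be tested in culture. It had 8, 8 and 12 reads in NET libraries and 1, 0 and 0 reads in control libraries, a ratio of 26.3 with an exact 95% counting interval of 4.35 to 1075. Ric1, the next gene on that side, rose by 0.36 ± 0.06 on the log2 scale (edgeR adjusted p = 0.00015). Plgrkt, a plasminogen receptor gene that starts 0.065 kb from Cd274 on the opposite strand, averaged 29.9 ± 1.80 CPM in NET and 34.0 ± 1.98 CPM in control cultures (SD; log2 fold change -0.19 ± 0.09, edgeR adjusted p = 0.0881). 

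Of 19 listed regulators of PD-L1, all tested in culture, 7 were higher and 3 lower with NET chromatin (median log2 fold change 0.02), where 26.3% of all genes were called higher and 27.8% lower. Irf1, the interferon-induced transcription factor known to drive Cd274, averaged 504 ± 20.4 CPM in NET and 265 ± 23.1 CPM in control cultures (SD; log2 fold change 0.93 ± 0.07, edgeR adjusted p = 2.62e-08). Stat2, which relays type I interferon signals, rose by 0.62 on the log2 scale, with 642 ± 31.9 CPM in NET and 418 ± 36.6 CPM in control cultures. Cmtm6, a membrane protein known to keep PD-L1 from degradation, rose by 0.49, with 77.1 ± 4.73 CPM in NET and 54.6 ± 0.753 CPM in control cultures. These 3 had the smallest p of the list. The 3 regulators called lower were Nlrc5 (-0.44, edgeR adjusted p = 0.000319), Hif1a (-0.23, edgeR adjusted p = 0.00501) and Ifngr1 (-0.27, edgeR adjusted p = 0.0171). The part of these regulators in the Cd274 level was not tested.

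Cd276 (chromosome 9, 58524298 to 58555437, minus strand) had 10.0, 6.23 and 7.14 CPM in NET cultures against 18.7, 16.1 and 18.5 CPM in control cultures. Every NET library lay below every control library (log2 fold change -1.19 ± 0.15, SE, n = 3 each, edgeR adjusted p = 4.06e-06). Cd80 (chromosome 16, 38455561 to 38496335, plus strand) had 1 read in all NET libraries together and 0 in the control libraries. Of 11 other checkpoint ligands listed, 5 were tested, with 1 higher and 2 lower (median -0.13), beside 26.3% and 27.8% of all genes. Icosl, the ligand of the T cell costimulator ICOS, fell to 4.92 ± 1.34 CPM in NET cultures, against 12.6 ± 2.98 CPM in control cultures (SD; log2 fold change -1.32, edgeR adjusted p = 2.43e-05). Vsir, the gene of the checkpoint protein VISTA, listed under its older symbol 4632428N05Rik, fell by 0.72 on the log2 scale (edgeR adjusted p = 0.00609). Lgals3, which encodes galectin-3, rose by 0.22 (edgeR adjusted p = 0.0133).

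Cd47 (chromosome 16, 49800533 to 49915010, plus strand) had 142, 144 and 134 CPM in NET cultures against 114, 110 and 118 CPM in control cultures. The groups did not overlap and the log2 fold change was 0.29 ± 0.06 (SE, n = 3 each, edgeR adjusted p = 0.00114). With libraries scaled by their totals, the median over all genes tested moved to -0.16 on the log2 scale. On that scale Pvr (0.14, edgeR adjusted p = 0.116) and Cd47 (0.13, edgeR adjusted p = 0.0898) no longer passed, and Lgals9 did (-0.29, edgeR adjusted p = 0.00126). Lgals9 (chromosome 11, 78962974 to 78984946, minus strand) had 116, 125 and 123 CPM in NET cultures against 142, 132 and 127 CPM in control cultures, with all NET libraries below all control libraries by a narrow margin (log2 fold change -0.13 ± 0.07, SE, n = 3 each, edgeR adjusted p = 0.0986).

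Of the 12 checkpoint receptors listed, only 2 had enough reads to be tested in culture, and both were higher with NET chromatin, where 26.3% of all genes were called higher. Siglecg had 119 reads in NET and 15 in control libraries, and a gene this low is tested only where one group is high, so the count of 2 is no support for the list. Siglecg, an inhibitory receptor that binds CD24, averaged 3.35 ± 0.421 CPM in NET and 0.419 ± 0.253 CPM in control cultures (SD; log2 fold change 2.999 ± 0.34, edgeR adjusted p = 1.64e-06). Havcr2, the TIM-3 gene, averaged 3.61 ± 1.00 CPM in NET and 1.06 ± 0.172 CPM in control cultures (1.64 ± 0.30, edgeR adjusted p = 0.000207). The PD-1 gene Pdcd1 had 0 reads in all culture libraries. The myeloid marker sums given above were higher in the same NET libraries.

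**Figure D3:**
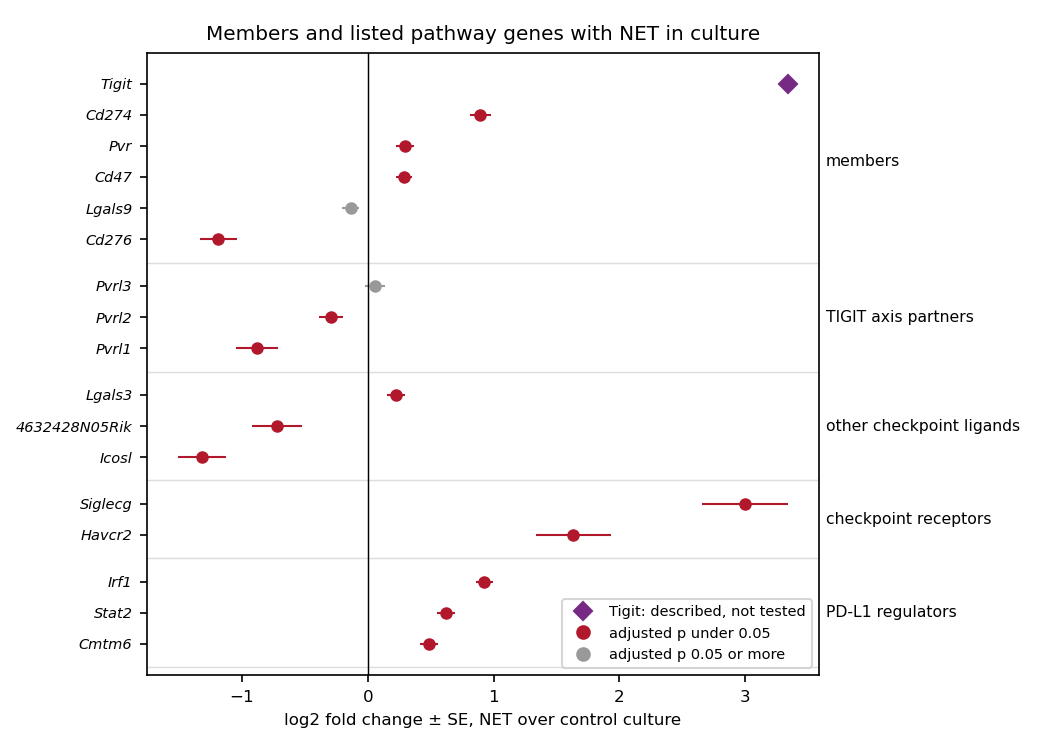
Log2 fold change of NET over control culture (horizontal axis, bars are SE) for the members fitted in culture and, of each of 4 pathway lists, the up to 3 genes with the smallest p; red points passed an adjusted p of 0.05, grey points did not, and the diamond is Tigit, which was described and not tested. Cd276 at -1.19 and Icosl at -1.32 are the lowest points, and the 3 PD-L1 regulators drawn are all higher, while others of that list were lower.

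Over the 14 libraries, scaled together, Tigit had its highest mean in NET cultures and its second highest in control cultures, and the ranges of control culture and WT control tumours overlapped. Per kb of exon, Lgals9 was the highest member in NET cultures (56.9 CPM per kb) and in control cultures (62.5 CPM per kb), and Tigit took place 5 of 8 in NET cultures (11.1 CPM per kb) and place 6 in control cultures (1.09 CPM per kb). The 5 genes whose log2 CPM over the 14 libraries was most like that of Tigit, out of 12045 compared, were Plekhf2 (Pearson r = 0.960), Fis1 (0.942), Zbtb34 (0.939), Ccdc66 (0.939) and Tph1 (0.936). For Cd274 they were Rel (0.987), Fez2 (0.975), Siva1 (0.974), AI450353 (0.974) and Trafd1 (0.973). Rel, an NF-kappaB subunit, averaged 39.7 ± 4.01 CPM in NET and 23.7 ± 2.12 CPM in control cultures and lay between 8.98 and 16.2 CPM in tumour libraries. All 10 genes had their highest group mean in NET cultures. Tigit and Cd274 did too, so this follows from picking genes by likeness to them and is no result. The 14 libraries are 6 groups, so r mostly reflects differences between groups.

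In tumour cells, 0 of the 7 tested members were called by edgeR in any of the 5 comparisons, and Tigit was too low to be tested. The shares of all 14615 tested genes called were also small, at 0.0547% for laparotomy in WT hosts, 0.52% for laparotomy in KO hosts, 0.677% for the difference between these effects, 0.116% for KO against WT hosts without surgery and 0.0205% with laparotomy. At an unadjusted p of 0.05 in edgeR, 3, 1, 2, 4 and 3 members passed in these comparisons, in the same order. Of all 14615 genes, 2753, 2293, 2803, 2388 and 1954 passed there, so no result about the members was drawn from these counts. DESeq2 called 3 members (Cd80, Cd276 and Lgals9), 1 (Cd80), 2 (Cd80 and Lgals9), 1 (Cd80) and 1 (Cd80), where it called 8.42%, 5.45%, 7.81%, 5.4% and 3.99% of all genes. With 2 libraries a group, the values below are given for each library.

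Cd80 had group means of 5.95 CPM in KO hosts with laparotomy, 1.34 CPM in KO control hosts, 1.25 CPM in WT hosts with laparotomy and 7.93 CPM in WT control hosts. Its libraries had 9.21 and 2.70 CPM in KO hosts with laparotomy (137 and 40 reads) against 1.44 and 1.25 CPM in KO control hosts (38 and 33 reads). In WT hosts it had 1.66 and 0.850 CPM with laparotomy (38 and 27 reads) against 9.23 and 6.63 CPM without surgery (101 and 201 reads). Laparotomy libraries were thus higher than controls in KO hosts and lower than controls in WT hosts, with no overlap in either host. The log2 fold changes were 2.14 ± 0.64 in KO hosts (SE, edgeR adjusted p = 0.178) and -2.66 ± 0.66 in WT hosts (edgeR adjusted p = 0.138). The difference between them was 4.80 ± 0.92 (edgeR adjusted p = 0.0647). KO libraries lay below WT libraries without surgery (-2.55 ± 0.65, edgeR adjusted p = 0.159) and above them with laparotomy (2.25 ± 0.65, edgeR adjusted p = 0.221).

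The groups with the higher Cd80 levels also had the higher macrophage marker sums, except that the highest KO control library, at 314 CPM of markers and 1.25 CPM of Cd80, reached the lower KO laparotomy library. All 10 markers were counted in every group, and they summed to 312 to 467 CPM in KO hosts with laparotomy, 119 to 314 CPM in KO control hosts, 110 to 126 CPM in WT hosts with laparotomy and 348 to 1465 CPM in WT control hosts. Lyz2 alone held 6814 of the 11571 marker reads in KO hosts with laparotomy and 6749 of 11443 in KO control hosts. In WT hosts Lyz2 held 2217 of 6391 with laparotomy and 34608 of 48227 without surgery. The pan-leukocyte markers, 10 of 10 counted in every group, summed to 94.3 to 126 CPM in KO hosts with laparotomy, 148.8 to 173 CPM in KO control hosts, 76.7 to 103 CPM in WT hosts with laparotomy and 128 to 845 CPM in WT control hosts. With the pan-leukocyte sum as a covariate the Cd80 difference was 4.86 ± 0.99 (edgeR adjusted p = 0.0833), and without WT control replicate 2 it was 5.03 ± 0.98 (edgeR adjusted p = 0.0601). Without KO laparotomy replicate 2 it was 5.41 and passed the threshold (edgeR adjusted p = 0.035; 1.54e-05 to 0.303 over 16 alternatives, DESeq2 included), and without KO laparotomy replicate 1, in which Cd80 was higher, the KO effect was 0.99. The part of macrophage RNA in the Cd80 values was not tested.

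Lgals9 had 114 and 101 CPM in KO hosts with laparotomy against 102 and 110 CPM in KO control hosts, and these groups overlapped. In WT hosts it had 81.1 and 86.0 CPM with laparotomy against 132 and 128 CPM without surgery, with both laparotomy libraries well below both controls. The log2 fold change was -0.64 ± 0.11 in WT hosts (SE, edgeR adjusted p = 0.0858) and 0.02 ± 0.11 in KO hosts (edgeR adjusted p = 0.951). The difference was 0.66 ± 0.15 (edgeR adjusted p = 0.0904), and without WT control replicate 2 it was 0.68 ± 0.19 (edgeR adjusted p = 0.149).

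**Figure D4:**
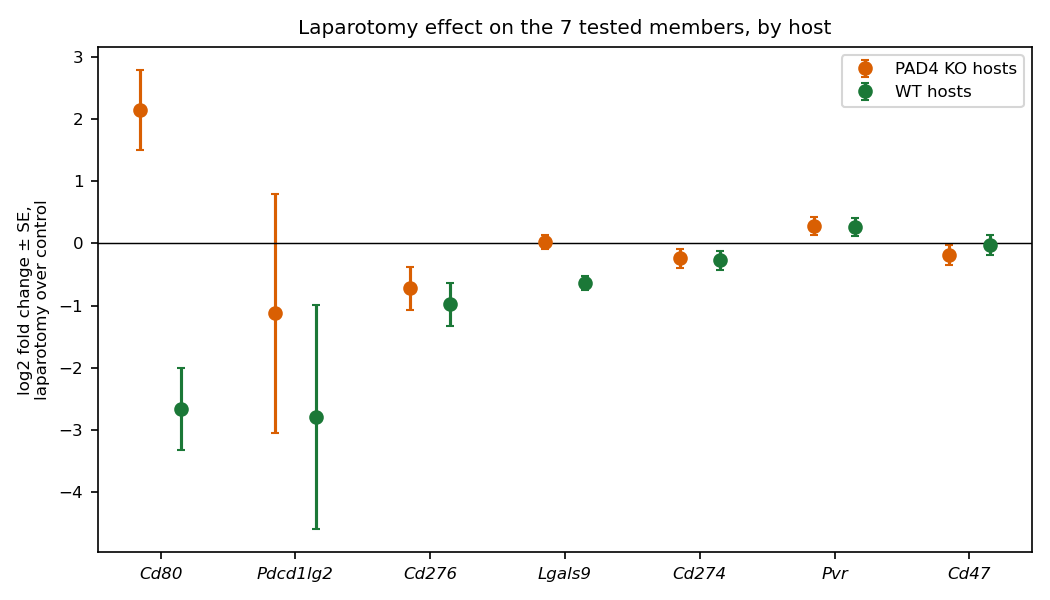
Log2 fold change of laparotomy over control (vertical axis, bars are SE) for the 7 members tested in tumour cells, in PAD4 KO hosts and in WT hosts with 2 libraries a group. The Cd80 values lie on opposite sides of 0, at 2.14 in KO and -2.66 in WT hosts, while Cd274, Pvr and Cd47 lie within 0.30 of 0 in both hosts.

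Cd276 had 60.6 and 27.7 CPM in KO hosts with laparotomy against 82.7 and 63.0 CPM in KO control hosts, and 36.5 and 41.5 CPM in WT hosts with laparotomy against 64.5 and 88.8 CPM in WT control hosts. Laparotomy libraries lay below the controls in both hosts. The log2 fold changes were -0.72 ± 0.35 in KO hosts (SE, edgeR adjusted p = 0.375) and -0.98 ± 0.35 in WT hosts (edgeR adjusted p = 0.204), and the difference between hosts was 0.26 ± 0.49 (edgeR adjusted p = 0.812). The KO effect was -1.40 without KO laparotomy replicate 1 and -0.28 without KO laparotomy replicate 2. Cd276 lay at 27.7 to 88.8 CPM in tumour libraries and at 6.23 to 18.7 CPM in culture, on separate scalings. Fibroblast, endothelial and pan-leukocyte marker sums were also higher in tumour libraries than in culture. Within each tumour group, the library with the higher fibroblast sum had the lower Cd276, except in KO control hosts. The part of fibroblast RNA in the Cd276 values was not tested.

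Cd274 was at 29.6 and 32.8 CPM in KO hosts with laparotomy, 38.1 and 35.9 CPM in KO control hosts, 21.1 and 23.4 CPM in WT hosts with laparotomy and 24.4 and 29.2 CPM in WT control hosts. The 4 groups did not overlap, though the lowest KO laparotomy library (29.6 CPM) lay just above the highest WT control library (29.2 CPM). Scaled by library totals, KO laparotomy and WT control libraries overlapped (29.3 against 30.03 CPM). With 2 libraries a group, a lack of overlap carries little weight. All tumour libraries lay below the culture libraries, also with the 14 libraries scaled together. KO hosts were above WT hosts by 0.46 ± 0.15 on the log2 scale without surgery (SE, edgeR adjusted p = 0.215) and by 0.49 ± 0.15 with laparotomy (edgeR adjusted p = 0.239). The effect of laparotomy was -0.24 ± 0.15 in KO hosts (edgeR adjusted p = 0.484) and -0.27 ± 0.15 in WT hosts (edgeR adjusted p = 0.368).

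Tigit had 0 and 0 reads in KO hosts with laparotomy against 10 and 7 reads in KO control hosts, and 8 and 8 reads in WT hosts with laparotomy against 3 and 35 reads in WT control hosts. Depth differed, at 15.05 and 15.32 M in KO hosts with laparotomy and 27.02 and 26.2 M in KO control hosts. In CPM, Tigit had 0.380 and 0.264 in KO control hosts and 0.349 and 0.252 in WT hosts with laparotomy. WT control hosts had 0.274 and 1.15 CPM. With the group at 0 set to 3 reads, Tigit was 3.23-fold lower in KO hosts with laparotomy than in KO control hosts. Against WT hosts with laparotomy it was 2.99-fold lower. The reads of the other group were taken as exact, so neither value is a lower bound, and no test was made. T and NK cell markers, the cells in which TIGIT is known, summed to 11.8 to 30.9 CPM in KO hosts with laparotomy (17 of 19 with a read, Ncr1 and Nkg7 at 0), 21.3 to 22.2 CPM in KO control hosts, 42.8 to 49.9 CPM in WT hosts with laparotomy and 14.6 to 196 CPM in WT control hosts. WT control replicate 2, with 35 of the 38 Tigit reads of its group, had the highest T and NK cell sum. Pdcd1lg2 had 3 and 0 reads in KO hosts with laparotomy, 0 and 12 in KO control hosts, 3 and 1 in WT hosts with laparotomy and 2 and 27 in WT control hosts, so single libraries held most of its reads.

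Pvr was at 162 and 124 CPM in KO hosts with laparotomy against 125 and 111 CPM in KO control hosts, which overlapped, and at 134 and 135 CPM in WT hosts with laparotomy against 104 and 121 CPM in WT control hosts, which did not. The log2 fold changes were 0.28 ± 0.15 in KO hosts (SE, edgeR adjusted p = 0.405) and 0.26 ± 0.15 in WT hosts (edgeR adjusted p = 0.387). Cd47 was at 89.9 and 115 CPM in KO hosts with laparotomy, 102 and 132 CPM in KO control hosts, 89.5 and 88.3 CPM in WT hosts with laparotomy and 93.3 and 88.0 CPM in WT control hosts. The laparotomy groups overlapped their controls in both hosts (-0.19 ± 0.16 in KO hosts, edgeR adjusted p = 0.619; -0.03 ± 0.16 in WT hosts, edgeR adjusted p = 0.95).

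Of the 4 pathway lists, members were called in tumour cells only among the PD-L1 regulators, where 19 of 19 were tested in each comparison. Myc, a transcription factor known to act on Cd274 and Cd47, had 151 to 154 CPM in KO hosts with laparotomy, 207 to 241 CPM in KO control hosts, 164 to 176 CPM in WT hosts with laparotomy and 85.8 to 104 CPM in WT control hosts. Its laparotomy effects differed between hosts by -1.40 ± 0.18 on the log2 scale (SE, edgeR adjusted p = 0.021). Without surgery, Myc was higher in KO than in WT hosts by 1.24 ± 0.13 and Irf1 by 1.07 ± 0.13 (edgeR adjusted p = 0.0388 each). Irf1 had 300 to 335 CPM in KO control hosts and 138 to 165 CPM in WT control hosts. The TIGIT axis partners (6 tested), other checkpoint ligands (10 tested) and checkpoint receptors (10 tested) had 0 members called in each of the 5 comparisons by edgeR. Among them Sirpa, the CD47 receptor of macrophages, had 9.30 to 20.0 CPM in KO hosts with laparotomy, 4.22 to 9.17 CPM in KO control hosts, 5.07 to 5.71 CPM in WT hosts with laparotomy and 15.2 to 58.5 CPM in WT control hosts (difference between laparotomy effects 3.92 ± 1.00, edgeR adjusted p = 0.122).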

How the data were processed

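The authors deposited a table of read counts for each of 14 libraries. Trimmomatic, STAR and the build mm10 (GRCm38) are named in the submitters' processing notes; their versions and options, the annotation and the kit were not given in the sources used here. Per the file headers and layout, each table held 24411 gene symbols with an unstranded and 2 strand-specific count columns; the unstranded column was used, and 4 summary lines (25.2 to 45.3% of reads) were left out. The main test was that of edgeR 4.0.16 under R 4.3.3 (filterByExpr, TMM, robust quasi-likelihood F test, Benjamini-Hochberg threshold 0.05), in 6 culture libraries (11753 genes) and in 8 tumour libraries fitted together (14615 genes), with 4 residual degrees of freedom each. CPM carried no pseudocount, except that likeness between genes used log2 CPM with a prior count of 2 and a mean of at least 1 CPM. DESeq2 1.42.0 was an alternative, and the tests were tested on simulated data. Counting intervals are exact at 95%; a group at 0 was set to 3 counts. The members and lists were chosen with earlier results of these data known. Named genes are the 8 members, the listed genes with the smallest p (up to 3 in culture and 2 in tumours per list), the 5 genes most like Tigit and Cd274, and neighbouring genes; markers and listed genes outside this were chosen after their values were seen, and not every gene the rule took is printed. Of the lists, 141 of 142 genes were matched; Pvrig was not. Positions are from GENCODE M21 and promoter sequences from RefSeq (GRCm38.p6), with 7 of 8 members matched.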

Additional observations from a re-analysis of the deposited data

Results flagged for a closer look

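The Cd80 effect of laparotomy lay in opposite directions in the 2 hosts, with both laparotomy libraries above both controls in KO hosts and below both controls in WT hosts. The difference between the effects, KO minus WT hosts, was 4.80 ± 0.92 on the log2 scale (SE), and its edgeR adjusted p of 0.0647 did not pass the threshold. Without KO laparotomy replicate 1 the KO effect was 0.99. Macrophage marker sums were higher in the groups with more Cd80, except that KO control replicate 2 (314 CPM) reached KO laparotomy replicate 2 (312 CPM). Within WT control hosts, the library with 1465 CPM of markers had less Cd80 (6.63 CPM) than that with 348 CPM of markers (9.23 CPM). The part of macrophage RNA was not tested.

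Myc, one of the listed PD-L1 regulators, differed in its laparotomy effect between hosts by -1.40 ± 0.18 on the log2 scale (edgeR adjusted p = 0.021). The effect was -0.56 in KO hosts (edgeR adjusted p = 0.106) and 0.84 in WT hosts (edgeR adjusted p = 0.0715). Neither of these passed the threshold by itself, and Myc was not followed in the alternative fits.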

How the results depend on the processing

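With NET chromatin, Cd274 and Cd276 passed the threshold in all 13 alternatives, and Tigit was 3.13 to 3.54 higher on the log2 scale. In tumour cells, where the report gives 0 members called, laparotomy in WT hosts had 1 with no filter on low counts, where 0.861% of all genes were called. It had 3 with DESeq2, where 8.42% were called, and 2 with all 14 libraries fitted together. Laparotomy in KO hosts had 1 with DESeq2 and 1 with all 14. The difference between hosts had 1 with no filter, 2 with DESeq2, where 7.81% were called, and 2 with all 14. The share of all genes is not given for the count with no filter, so that count is no result about the members. KO against WT hosts had 1 with DESeq2 and 2 with all 14 without surgery, and 1 and 3 with laparotomy. The fits of all 14 libraries called 4.94 to 11.1% of all genes in these comparisons. Of the members called with all 14, Tigit was 1 of 1 for laparotomy in KO hosts and 1 of 3 for KO against WT hosts with laparotomy; it entered that fit through the NET cultures in which it was high, so these calls support nothing. With NET chromatin, 5 members were called in the fits that also held Pdcd1lg2, which had 28 reads in NET and 1 in control libraries. In culture Pdcd1lg2 has enough reads only where NET chromatin was given, so its call supports nothing either. These fits called 36.7% of all genes with no filter, 41.2% with DESeq2, 48.6% without control replicate 1 and 25.8% with all 14 libraries.

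Reversed log2 values, none of them called, were Lgals9 for laparotomy in KO hosts with library totals (-0.0013), and with the leukocyte covariate the difference between hosts for Pvr (-0.11), Cd274 (-0.0751), Pdcd1lg2 (-0.30) and Cd276 (-0.0471) and KO against WT hosts without surgery for Pdcd1lg2 (0.31) and Cd276 (0.15). Leaving out replicates, the ranges that crossed 0 were, for laparotomy in WT hosts, Cd47 -0.0665 to 0.0167; in KO hosts, Lgals9 -0.0821 to 0.0855, Pdcd1lg2 -5.46 to 4.21 and Cd47 -0.40 to 0.0043; for the difference, Pvr -0.19 to 0.18, Cd274 -0.11 to 0.14, Cd47 -0.38 to 0.0267, Pdcd1lg2 -2.68 to 7.01 and Cd276 -0.43 to 0.69; for KO against WT hosts without surgery, Pvr -0.0201 to 0.18, Pdcd1lg2 -6.64 to 0.30 and Cd276 -0.29 to 0.17; and with laparotomy, Pdcd1lg2 -3.95 to 1.52, Pvr -0.11 to 0.26 and Cd276 -0.49 to 0.62. The cause was not tested. 

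Same-numbered culture libraries deviated together with correlations of 0.0904, 0.0938 and -0.0259, so the numbers were not taken to pair them; with the replicate block, 4 members were called with NET chromatin and 0 in each tumour comparison, and of all genes 3180 were called higher and 3392 lower in culture, against 3093 and 3270 without it. Few reads limit Tigit, Pdcd1lg2 and Cd80, and 2 libraries a group limit every tumour comparison.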
